A study of Mus musculus with 14 samples.

Results

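The line of αTN4-1 mouse lens epithelial cells labelled WT-CREB was compared with the line labelled Vector, within control cells and again within cells treated with TGFβ. These are 4 of the 14 RNA-sequencing libraries of the series, 2 for each line, with 1 library per line and treatment. Genes were chosen by 1 rule. Transcript abundances (TPM, which correct for transcript length and library size) were summed by gene, and 10461 of 40853 genes reached a mean of 5 TPM over the 4 libraries. Of these, 8297 (79.3%) differed in 1 direction in both treatments, 3958 (37.8%) higher and 4339 (41.5%) lower in the line labelled WT-CREB. The text below describes the 283 genes (2.71%) that were at least 2-fold higher in both treatments and the 306 (2.93%) that were at least 2-fold lower. Every difference is the WT-CREB value minus the Vector value of log2(TPM + 1), in control and then with TGFβ.

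αTN4-1 cells come from a lens tumour of transgenic mice that express a viral T antigen in the lens. All cells compared here grew in medium with fetal bovine serum under neomycin, which selects cells that carry a construct. The Vector group is this line with the vector, and the WT-CREB group is the line said to overexpress unmutated CREB. The control libraries come from cells without TGFβ, and the TGFβ libraries from cells given 20 ng/mL TGFβ for 24 h in serum-free medium. Whether control cells also went without serum is not stated, so TGFβ and serum withdrawal cannot be told apart. The labels do not say whether a line is 1 clone or a pool of cells, nor from which species the CREB construct came. A difference between the lines can therefore come from the construct or from the founder cells of a line, and these cannot be told apart. The 2 treatments are the only repeat of the comparison. No test was made and no p-value is given, since no line and treatment has a second culture and the line difference rests on 4 libraries.

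CREB is a leucine zipper transcription factor that sits on cAMP response elements in promoters. Protein kinase A phosphorylates it when cAMP rises, and it then recruits the coactivators CBP and p300, while CRTC proteins enter the nucleus as a further group of coactivators. In the lens, epithelial cells form 1 layer under the capsule, and TGFβ drives them towards matrix-producing cells that resemble myofibroblasts.

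Creb1, which encodes CREB (chromosome 1, 64571963 to 64643707, GRCm39), was lower and not higher in the line labelled WT-CREB. It had 20.8 TPM in Vector control cells and 23.1 TPM in Vector TGFβ cells, against 11.6 and 9.68 TPM in the line labelled WT-CREB. The differences were -0.80 and -1.17. Both libraries labelled WT-CREB thus lay below both Vector libraries, which goes against the label. Of the other lines, R314A-CREB (9.04 and 5.89 TPM) and S133A-CREB (6.59 and 4.43 TPM) were also below both Vector libraries. So was S133A/R314A-CREB (7.92 and 6.01 TPM). KCREB (25.8 and 30.1 TPM) and S133A-KCREB (34.0 and 38.3 TPM) were above both Vector libraries. If the WT-CREB construct carries CREB of a different species, its transcripts may be missing from the Creb1 value, and this was not tested. Every direction below is that of the line labelled WT-CREB, with this reservation.

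Of the 12 members of the CREB subfamily and its coactivators at 5 TPM or above, 1 met the 2-fold rule upwards and 1 downwards, with a median difference of 0.00. Creb3l1, a membrane-bound relative of CREB that is released by cleavage in the Golgi, was listed at 0 in both Vector libraries. It had 18.7 TPM in control and 32.5 TPM with TGFβ in the line labelled WT-CREB, differences of 4.30 and 5.07, and at most 0.664 TPM in the 10 libraries of the other 5 lines. Creb3, another membrane-bound relative, went the other way. It had 259 and 214 TPM in Vector against 87.9 and 79.1 TPM, differences of -1.55 and -1.43. The related Creb3l2 had differences of -0.78 and -1.09. The close relatives Atf1 (0.60 and 0.44) and Crem (-0.32 and -0.86) and the coactivator Crtc2 (0.78 and 0.66) stayed within 2-fold. Creb3 and Creb3l1 were thus the members with the largest differences, and neither is the gene named in the label.

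**Figure D1:**
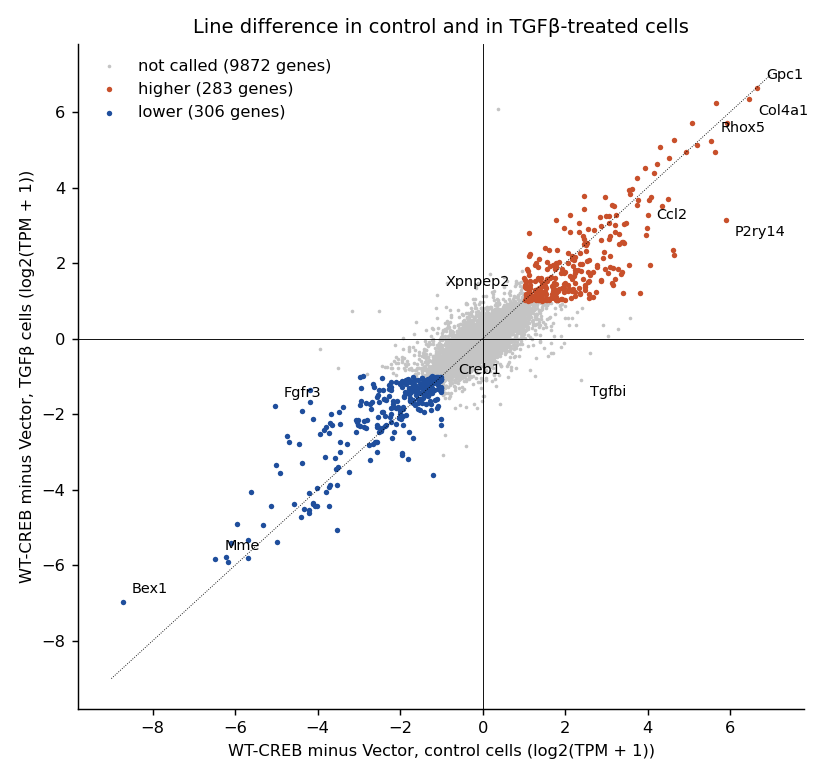
Each point is 1 of 10461 genes, with the difference between the lines (WT-CREB minus Vector, log2(TPM + 1)) in control cells on the x axis and in TGFβ-treated cells on the y axis. The 283 genes in red and the 306 in blue are at least 2-fold apart in the same direction in both treatments, Tgfbi and Xpnpep2 lie past 2-fold in opposite directions, and the lone grey point near the top is the mitochondrial tRNA gene TrnS1, listed at 0 in the Vector TGFβ library.

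The line difference was larger in control cells than in TGFβ cells. In control cells 478 genes (4.57%) were at least 2-fold higher and 575 (5.50%) at least 2-fold lower, against 342 (3.27%) and 408 (3.90%) with TGFβ. The genes past 2-fold in control cells can be read in the TGFβ libraries. Those libraries had no part in the 2-fold choice, but they did enter the mean of 5 TPM, so the reading is not fully independent. Of the 478 higher genes, 283 (59.2%) were also past 2-fold with TGFβ and 461 (96.4%) had the same direction, and their median went from 1.52 to 1.11. Of the 575 lower genes, 306 (53.2%) were past 2-fold and 560 (97.4%) had the same direction, and their median went from -1.41 to -1.04. Read the other way, 82.7% of the genes higher with TGFβ and 75% of those lower with TGFβ were also past 2-fold in control. Across all 10461 genes the differences of the 2 treatments had a Pearson correlation of 0.855, a description across genes that share their libraries. The median difference over all genes was -0.01 in control and -0.03 with TGFβ.

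At the edge of the rule, Golm2 was just inside on the higher side, with differences of 1.43 and 1.0, and Pnpla7 just outside, with 1.0 and 1.04. On the lower side Slc4a7 (-1.22 and -1.0) was just inside and Grk5 (-1.18 and -1.0) just outside. Ang2 passed the filter on low values with a mean of 5.00 TPM, and Lncenc1 missed it with 4.99 TPM. The genes that met the rule were more frequent among low genes. Between 5 and 20 TPM 4.94% were higher and 5.52% lower, between 20 and 100 TPM 1.98% and 2.08%, and from 100 TPM on 1.69% and 1.73%.

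The 4 libraries were similar in depth. The per-base coverage that corresponded to 1 FPKM, which follows depth, was 6.65 and 6.01 in the Vector libraries and 6.74 and 7.77 in those labelled WT-CREB. Between 12708 and 12768 genes per library reached 1 TPM. Mitochondrially encoded genes held 6.78% and 6.48% of TPM in Vector and 10.8% and 8.64% in the line labelled WT-CREB. Markers of lens epithelium were mixed in all 4 libraries. Pax6 (61.9 to 166 TPM), Six3 (45.0 to 66.3 TPM), Cdh2 (149 to 224 TPM) and Cryab (244 to 1674 TPM) were present, whereas Foxe3 was listed at 0 throughout and Cdh1 and Gja1 did not exceed 0.249 TPM. The fiber markers Mip, Bfsp1 and Lim2 did not exceed 0.368 TPM. Markers of most other cell types were sparse. Those at 5 TPM or above were 1 of 13 macrophage, 2 of 14 muscle and 1 of 11 pigment epithelium and melanocyte markers. Of the neuronal and retinal markers 0 of 16 reached that level, and of the endothelial ones 0 of 12. Surface ectoderm and corneal markers were not sparse, with 4 of 15 at 5 TPM or above. Their sum was 898 and 492 TPM in Vector and 2347 and 1016 TPM in the line labelled WT-CREB. Aldh3a1 alone made up most of it, with 702 and 358 TPM against 2276 and 944 TPM. Among the 4 members, 1 was higher and 2 were lower in both treatments at any size, with a median of -0.20, so the sum does not describe the list. The summed macrophage markers, of which Lyz2 alone reached 5 TPM, had 93.7 and 45.2 TPM in Vector and 30.5 and 26.3 TPM in the line labelled WT-CREB, and the part of such cells in any difference was not tested. The summed endothelial markers had 2.39 to 5.34 TPM in the 4 libraries.

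The largest differences upwards included those of a cell surface proteoglycan and of collagens. Gpc1 (chromosome 1, 92759367 to 92787933), the heparan sulfate proteoglycan glypican-1 of the cell surface, had 0.830 and 1.47 TPM in Vector and 183 and 245 TPM in the line labelled WT-CREB, differences of 6.65 and 6.63. Col4a1 (chromosome 8, 11248423 to 11362889) and Col4a2 (chromosome 8, 11362805 to 11499287) encode the collagen IV chains found in nearly all basement membranes and lie head to head. Col4a1 had 0.0768 and 0.0652 TPM in Vector against 93.7 and 85.1 TPM, differences of 6.46 and 6.34. Col4a2 was listed at 0 in both Vector libraries and had 35.8 and 33.7 TPM in the line labelled WT-CREB, differences of 5.20 and 5.12. The 2 lines did not come near each other for any of these genes, and TGFβ changed none of the 3 by as much as the line did. Col1a2, the second chain of collagen I, had 0.202 and 1.34 TPM against 58.4 and 70.6 TPM, differences of 5.63 and 4.94.

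The other genes at the top differ in what they encode. Aif1l, an actin-binding protein, had differences of 5.65 and 6.25, and Scarf2, a scavenger receptor, of 5.93 and 5.71. Rhox5, an X-linked homeobox gene of the reproductive tract, went from 13.5 and 16.7 TPM to 678 and 667 TPM. Its family has similar copies, so the value is uncertain. Gatm, which makes the precursor of creatine, had 5.07 and 5.72, and the secreted ligand Wnt7b 4.64 and 5.25. Tnfrsf10b, the mouse receptor for the death ligand TRAIL, had at most 0.0558 TPM in Vector and 31.3 and 31.1 TPM in the line labelled WT-CREB. Ripk3, the kinase of necroptosis, went from 0.687 and 0.713 TPM to 38.1 and 46.0 TPM. Creb3l1, described above, completes the 12 highest.

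The genes with the largest differences downwards were likewise diverse in what they encode. Bex1 (chromosome X, 135114721 to 135116262), a small adaptor protein known from neurons, had 420 and 142 TPM in Vector and was listed at 0 and had 0.134 TPM in the line labelled WT-CREB, differences of -8.72 and -6.98. Mme (chromosome 3, 63202632 to 63291134), the membrane peptidase neprilysin, had 110 and 66.4 TPM against 0.242 and 0.179 TPM, differences of -6.48 and -5.84. Khdrbs3, an RNA-binding splicing regulator, had 70.3 and 62.7 TPM and was then listed at 0 and had 0.0486 TPM. In each of these genes both Vector libraries were far above both libraries labelled WT-CREB. In the other lines Bex1 had at least 54.3 TPM and Khdrbs3 at least 65.7 TPM. Mme ranged from 0.560 to 31.0 TPM there, with a median of 0.780 TPM, so that Vector was the highest line. Fmr1nb, a testis gene, was listed at 0 in both libraries labelled WT-CREB after 74.2 and 53.8 TPM in Vector.

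Fez1, a kinesin adaptor of axons, had differences of -6.09 and -5.41, and the orphan receptor Gpr176 of -5.68 and -5.80. Npr2 (chromosome 4, 43629015 to 43651437), the receptor for C-type natriuretic peptide that makes cGMP, had 51.5 and 41.1 TPM in Vector and at most 0.0456 TPM in the line labelled WT-CREB. Ccnd2, the G1 cyclin D2, had 41.2 and 30.9 TPM against 0.0535 and 0.0434 TPM. The Ras effector family member Rassf4 (-5.61 and -4.05), the GTPase regulator Arhgdib (-5.12 and -4.44), the carbonyl reductase Cbr1 (-4.41 and -4.71) and the cullin adaptor family member Kctd17 (-4.56 and -4.37) complete the 12 lowest named genes. Predicted genes and pseudogenes, 16 of the higher and 37 of the lower genes, were passed over in these ranks, and among them Gm38450 (-5.95 and -4.90) and Gm35195 (-4.99 and -5.38) lay between Npr2 and Ccnd2.

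Among genes of high level, Fth1, the heavy chain of the iron store ferritin, had the most TPM of those that met the rule. It had 4016 and 2025 TPM in Vector against 8105 and 6195 TPM, differences of 1.01 and 1.61. Aldh3a1, an aldehyde dehydrogenase abundant in the cornea, went from 702 and 358 to 2276 and 944 TPM. The mitochondrial ribosomal RNA genes mt-Rnr1 (1.98 and 1.73) and mt-Rnr2 (1.18 and 1.04) were higher as well. On the lower side, Tmsb4x, the actin-binding thymosin beta 4, had 3079 and 4636 TPM in Vector against 1225 and 2215 TPM. Vcp, the segregase of protein degradation, had 2006 and 2061 TPM against 917 and 936 TPM, differences of -1.13 and -1.14. Nupr1, a stress-induced nuclear protein, had 1396 and 2949 TPM against 394 and 323 TPM, and Bex3, a relative of Bex1, 1763 and 852 TPM against 412 and 384 TPM. Under quantile normalization Fth1 and Vcp no longer met the 2-fold rule.

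**Figure D2:**
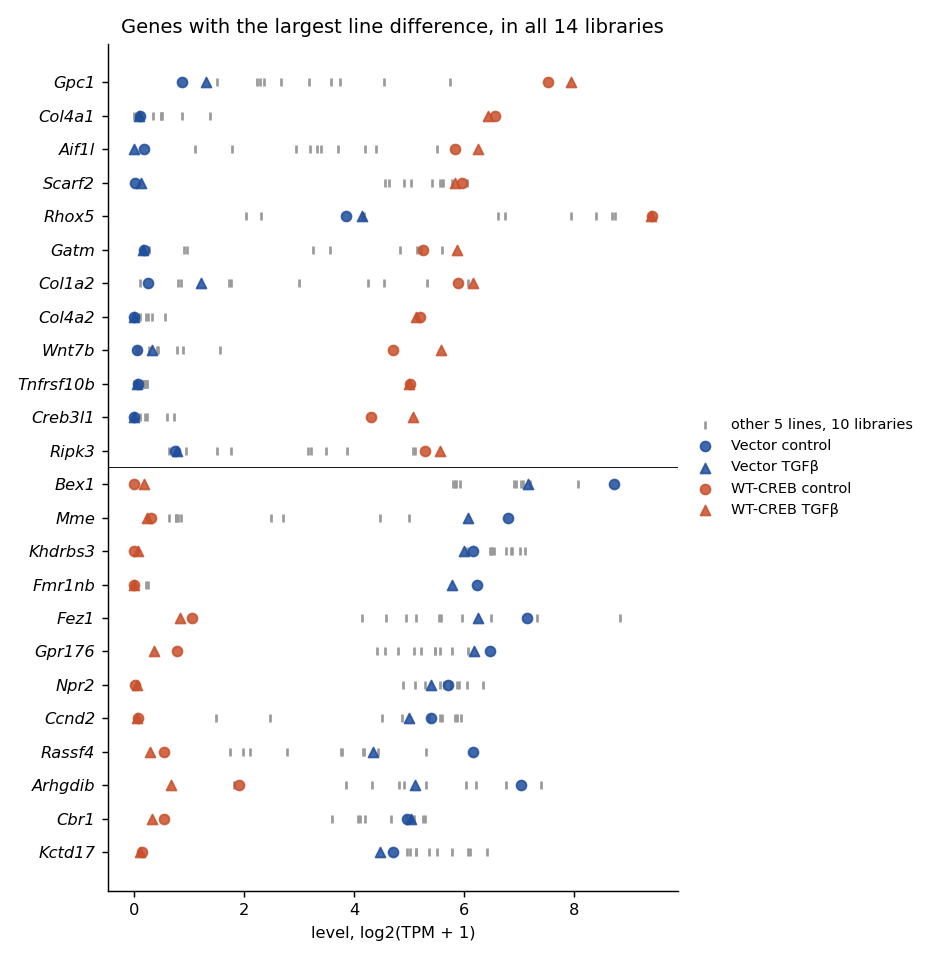
Levels of the 12 genes with the highest and the 12 with the lowest mean difference, predicted genes and pseudogenes passed over, as log2(TPM + 1) on the x axis, with 1 row per gene. Blue marks are the 2 Vector libraries, red marks the 2 labelled WT-CREB, and grey ticks the 10 libraries of the other 5 lines. Khdrbs3 and Kctd17 are near 0 in red alone, whereas Scarf2 is near 0 in blue alone.

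The other 5 lines, labelled for mutant CREB constructs, show how far these genes vary between lines. All of them are set against the same 2 Vector libraries. Of the 283 higher genes, 134 (47.3%) had both libraries labelled WT-CREB above all 10 libraries of the other 5 lines, and 32 (11.3%) had both Vector libraries below them. Of the 306 lower genes, 171 (55.9%) had both libraries labelled WT-CREB below those 10, and 22 (7.19%) had both Vector libraries above them. Over all 10461 genes the line labelled WT-CREB stood above in 8.01% and below in 10.1%, and Vector above in 1.85% and below in 1.76%. For 127 higher and 126 lower genes neither line stood outside the other lines.

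Some genes were near 0 in 1 line and expressed in the other. With under 0.5 TPM in both libraries of 1 line and at least 5 TPM in both of the other, 26 of the 306 lower genes were near 0 in the line labelled WT-CREB, and 18 of the 283 higher genes were near 0 in Vector. Of the 26, 11 had at least 5 TPM in all 10 libraries of the other lines. They include Bex1, Khdrbs3, Npr2, Cbr1, Kctd17, the kinase Stk39 (19.2 and 21.8 TPM in Vector, listed at 0 in both libraries labelled WT-CREB), the axonal kinesin Kif1a and the homeobox gene Hoxd13. Fmr1nb alone was under 0.5 TPM in all of the other lines, so that Vector was the one line of the 7 with more. Of the 18, 7 were under 0.5 TPM in every other line as well, namely Col4a2, Tnfrsf10b, Loxl2, Echdc2, Ghr, Pon3 and Slc4a4. The growth hormone receptor gene Ghr, for example, had 0.232 and 0.171 TPM in Vector and 19.2 and 14 TPM in the line labelled WT-CREB. Scarf2 was the reverse case, near 0 in Vector and between 22.6 and 65.3 TPM in the other lines. These genes were singled out after their values were seen. A listing at 0 may also be an estimate that failed.

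Among the known targets of cAMP and CREB, 23 of 33 reached 5 TPM and 0 met the 2-fold rule in either direction, a count near the 2.71% and 2.93% of all genes. Their median difference was -0.04 against -0.02 over all genes, and it turned to 0.07 in control libraries alone and 0.17 with a filter at 20 TPM. In control cells alone Sgk1, a kinase of the serum response, had 62.8 TPM in Vector and 213 TPM in the line labelled WT-CREB, a difference of 1.74, but with TGFβ it had 319 and 333 TPM, a difference of 0.06. Sik1, a kinase that restrains CRTC proteins, had differences of 1.16 and 0.98, Cebpb of 1.04 and 0.93, and the growth factor gene Areg of 1.01 and 0.78. Each of these 3 missed 2-fold with TGFβ. Nr4a1 (-0.22 and -0.27), Per1 (-0.71 and -0.23) and Dusp1 (-0.70 and -0.15) pointed down. Of 15 genes of the cAMP pathway itself, 2 were higher by the rule and 0 lower. The phosphodiesterase gene Pde7a went from 33.1 and 62.3 to 159 and 136 TPM, and Prkar2b, a regulatory subunit of protein kinase A, from 58.8 and 43.6 to 158 and 105 TPM.

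Promoters were searched for the full cAMP response element, TGACGTCA, which reads the same on both strands, in RefSeq windows (GRCm38.p6) from 250 bases before to 50 after the gene start. A window was at hand for 187 (66.1%) of the 283 higher and 237 (77.5%) of the 306 lower genes. As fewer than 80% have one, a comparison of shares between these genes and others is void, and the counts describe the windows read. The element was in 2 of the 187 and 4 of the 237 windows, in 311 (3.74%) of the 8324 windows of all genes compared, in 549 (2.03%) of all 27025 promoters of the same length and in 4 of 26 windows of the cAMP and CREB targets. Sequences of 60 bases around it, read along the gene's strand with the element in capitals, are shown to set genes that met the rule beside known targets that did not. Errfi1, an inhibitor of the EGF receptor, and Mcam, a cell adhesion molecule, were higher. Dctn3, a dynactin subunit, Galnt11, a glycosyltransferase, and Ranbp6, an importin relative, were lower, and Areg, Btg2 and Dusp1 met the rule in neither direction.
Errfi1: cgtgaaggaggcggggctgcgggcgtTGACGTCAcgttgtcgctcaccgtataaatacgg
Mcam: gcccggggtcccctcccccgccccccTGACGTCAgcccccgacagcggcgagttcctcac
Dctn3: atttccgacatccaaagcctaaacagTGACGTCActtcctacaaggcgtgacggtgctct
Galnt11: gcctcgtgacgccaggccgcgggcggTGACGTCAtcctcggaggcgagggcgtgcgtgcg
Ranbp6: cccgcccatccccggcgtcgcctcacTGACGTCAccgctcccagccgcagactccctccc
Areg: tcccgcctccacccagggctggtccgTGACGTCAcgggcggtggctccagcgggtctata
Btg2: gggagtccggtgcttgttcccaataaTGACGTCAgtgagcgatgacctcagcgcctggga
Dusp1: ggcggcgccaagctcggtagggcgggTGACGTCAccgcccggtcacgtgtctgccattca

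Errfi1 had 15.2 and 21.0 TPM in Vector and 91.2 and 108 TPM in the line labelled WT-CREB, differences of 2.51 and 2.31. Mcam had 0.598 and 3.64 TPM against 6.56 and 11.8 TPM. Galnt11 (-1.79 and -1.32), Dctn3 (-1.47 and -1.23) and Ranbp6 (-1.23 and -1.01) carry the same 8 letters and were lower, as was the predicted gene Gm35195, the fourth lower gene with the element, whose sequence is not shown. The element thus stood in windows of genes of both directions and of neither. A match describes the letters of a window and is not a site of binding.

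Lens genes were mostly lower in the line labelled WT-CREB. Of 16 lens epithelial regulators at 5 TPM or above, 7 were lower by the 2-fold rule and 0 higher, 13 were lower in both treatments at any size, and the median difference was -1.17. Fgfr3, a receptor for fibroblast growth factors, had 220 and 24.0 TPM in Vector against 5.69 and 6.21 TPM, differences of -5.04 and -1.79. Mab21l1, a gene needed for lens formation, had 131 and 32.1 TPM against 20.0 and 13.3 TPM. In both genes the Vector TGFβ library lay much closer to the line labelled WT-CREB than the Vector control library did. Jag1, a Notch ligand of the lens, had 101 and 276 TPM against 29.4 and 87.2 TPM, so that TGFβ cells were higher than control cells in both lines while the line difference stayed at -1.75 and -1.65.

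The water channel gene Aqp1 had 891 and 425 TPM in Vector against 260 and 172 TPM, and the transcription factor genes Meis1 (-1.29 and -1.47) and Tfap2a (-1.64 and -1.10) and the receptor gene Fgfr2 (-1.18 and -1.17) were lower too. Pax6 and Sox2, master regulators of the eye, missed 2-fold with TGFβ, with differences of -1.36 and -0.98 and of -1.36 and -0.99. Six3 had -0.38 in both treatments. Of 7 fiber genes, 2 were lower by the rule and 0 higher, and the median was -0.74. Prox1, which drives fiber cells to elongate, had 48.8 and 20.0 TPM against 2.75 and 2.73 TPM, and Lctl, a glycosidase relative, 17.2 and 3.19 TPM against 1.32 and 1.08 TPM. The crystallins split. Cryab, a small heat shock chaperone, had 1674 and 505 TPM in Vector against 310 and 244 TPM, differences of -2.43 and -1.05. Cryaa had 4.08 and 6.17 TPM against 27.4 and 18.2 TPM, differences of 2.48 and 1.42, at a level far below that of Cryab. Most of these lens genes had wide ranges in the other lines, from 6.59 to 248 TPM for Fgfr3 and from 3.86 to 66.3 TPM for Prox1, and both genes were lower in the line labelled WT-CREB than in any of them. In bulk RNA, fewer cells that express a gene and less RNA per cell cannot be told apart.

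Matrix genes were higher more often than lower. Of 27 fibrillar and other matrix genes, 10 were higher by the rule and 2 lower, with a median of 0.75, or 1.15 in control and 0.26 with TGFβ. Besides Col1a2, the higher members were Col5a1, Col5a3, Col6a1, Col6a2, Col12a1, Fn1, Tnc, Fbn1 and Loxl2. Col5a3, a minor fibrillar chain, had 3.95 and 4.89 TPM in Vector against 75 and 134 TPM. Col12a1, which decorates collagen fibrils, had 1.28 and 1.14 TPM against 20.2 and 16.2 TPM. Loxl2, which crosslinks collagen, had at most 0.105 TPM in Vector and 13.2 and 19.9 TPM in the line labelled WT-CREB. For each of these genes the 2 lines were well apart in both treatments. In the other lines Col5a3 reached at most 21.2 TPM, Col12a1 2.68 TPM and Loxl2 0.397 TPM. Other members were high in another line as well. Col1a2 reached 65.8 TPM in the line labelled R314A-CREB, and Col6a1 and Col6a2 reached 253 and 143 TPM in that labelled S133A-CREB.

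Fn1, or fibronectin, had 68.4 and 359 TPM in Vector against 473 and 1379 TPM, differences of 2.77 and 1.94. The control library labelled WT-CREB thus lay above the Vector TGFβ library. Fn1 ranged from 72.4 to 1970 TPM in the other lines. The line labelled S133A-CREB, with 1105 and 1970 TPM, was above the line labelled WT-CREB. Col1a1 did not follow Col1a2. It had 1.56 and 23.8 TPM in Vector against 7.13 and 18.2 TPM, differences of 1.67 and -0.37. Col3a1 was higher in control alone, with differences of 3.29 and 0.26. The lower members were the small proteoglycan Ogn, with 29.7 and 5.54 TPM against 1.74 and 0.721 TPM, and the elastic fibre protein Efemp1, with 230 and 25 TPM against 42.2 and 9.09 TPM.

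Of 20 genes of the lens capsule and other basement membranes, 4 were higher by the rule, namely Col4a1, Col4a2, Col18a1 and Lama5, and 1, Lama2, was lower. The median was -0.02, and its sign turned under quantile normalization (0.01) and without mitochondrially encoded genes (0.03). The other collagen IV chains did not share the difference. Col4a3 had -0.93 and -1.09, Col4a4 -0.62 and -0.56, Col4a5 -0.11 and 0.12, and Col4a6 0.08 and 0.21. Col18a1, the precursor of endostatin, had 1.93 and 2.83 TPM against 23.5 and 30.8 TPM. The laminin chain Lama5 (1.09 and 1.15) was higher and the muscle-type chain Lama2 (-1.33 and -1.12) lower. Nid1 (-1.84 and -0.59) and Sparc (-1.63 and -0.84) were past 2-fold in control cells alone.

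Integrins and proteases held genes of both directions. Of 10 integrin genes, 2 were higher and 1 lower. Itgb3, the beta chain of the vitronectin receptor, had 0.0478 and 1.21 TPM against 5.84 and 15.1 TPM, and the laminin receptor Itga7 129 and 119 TPM against 367 and 280 TPM. The collagen receptor Itga11 had 18.3 and 7.85 TPM against 0.851 and 1.52 TPM. Of 18 proteases and inhibitors, 5 were higher and 2 lower. Adamts4, which cuts aggrecan, had 4.55 and 33.5 TPM against 137 and 159 TPM. Adamts1, a related protease, had 128 and 142 TPM against 28.2 and 24.8 TPM, and the inhibitor Timp3 34.4 and 13.1 TPM against 3.82 and 1.80 TPM. Timp2 (1.09 and 1.80), Mmp19, Adamts2 and Plau were the other higher members. Of the 7 transcription factors of epithelial-mesenchymal transition and the 13 contractile genes 0 met the rule, which is near the share of all genes for lists of this size. The contractile genes had a median of -0.39, with 8 of 13 lower in both treatments at any size. Zeb2 had 0.79 and 0.75, and the smooth muscle gene Tagln -1.41 and -0.32.

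**Figure D3:**
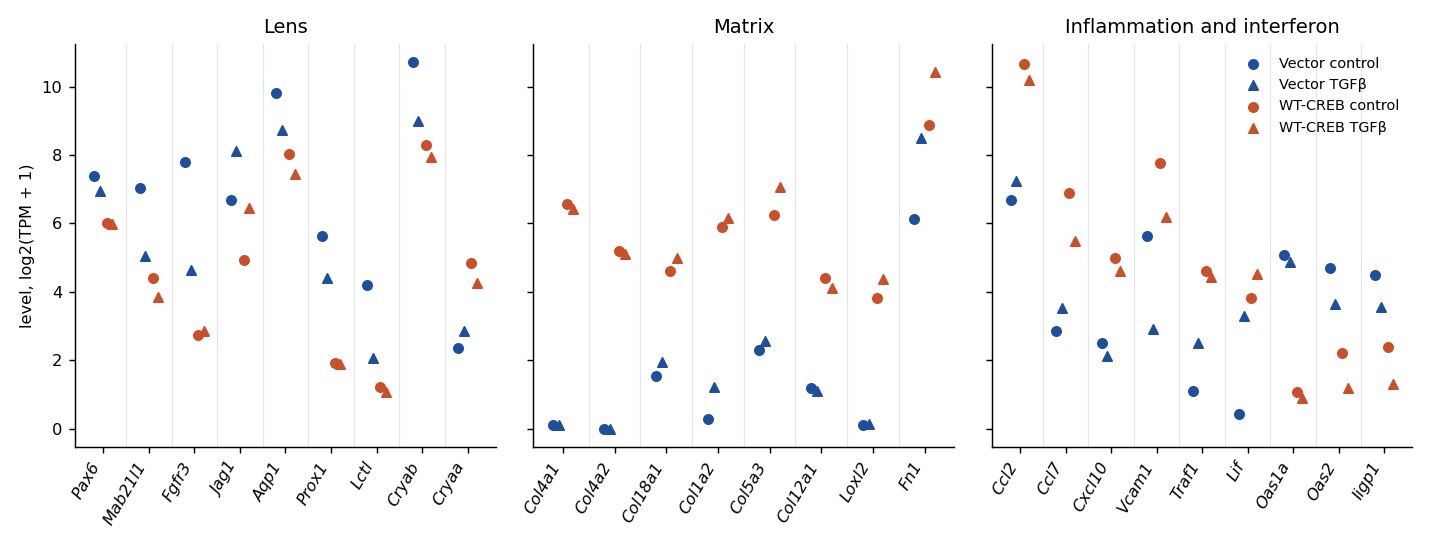
Levels of lens, matrix, and inflammation and interferon genes in the 4 libraries, as log2(TPM + 1) on the y axis. Circles are control and triangles TGFβ libraries, blue is Vector and red the line labelled WT-CREB. The genes drawn are examples. The blue circle stands above the red one in 8 of the 9 lens genes. The 8 matrix genes all met the 2-fold rule upwards, so red is higher within each treatment by choice. The lower matrix genes Ogn and Efemp1 are not drawn.

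The inflammatory genes that met the rule were higher and the interferon-stimulated ones mostly lower. Of 13 NF-kB targets and inflammatory genes, 4 were higher by the rule and 0 lower, 10 were higher in both treatments at any size, and the median was 1.01. Vcam1, an adhesion receptor for leukocytes, had 48.6 and 6.52 TPM in Vector against 215 and 72.3 TPM, differences of 2.12 and 3.28. Traf1, a signalling adaptor, had 1.12 and 4.63 TPM against 23.6 and 20.6 TPM, and the cytokine gene Lif 0.338 and 8.84 TPM against 13.2 and 21.7 TPM. Vcam1 was lower with TGFβ in both lines, while Lif was higher with TGFβ in both. Tnfaip2 (1.37 and 2.10) was the fourth, and the inhibitor gene Nfkbia had 1.42 and 0.77.

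Of 7 chemokine genes at 5 TPM or above, 3 were higher by the rule and 0 lower. Ccl2, which attracts monocytes, had 101 and 150 TPM in Vector against 1608 and 1160 TPM, differences of 3.98 and 2.94, and at most 393 TPM in any other line. Its neighbour Ccl7 had 6.17 and 10.5 TPM against 118 and 43.8 TPM. Cxcl10, which interferon also induces, had 4.70 and 3.33 TPM against 30.5 and 23.5 TPM. It ranged from 2.04 to 177 TPM in the other lines, so the line labelled WT-CREB was not the extreme one. Of 36 interferon-stimulated genes, 6 were lower by the rule and 1 higher, 24 were lower in both treatments at any size, and the median was -0.61. Oas1a, a sensor of double-stranded RNA, had 32.9 and 28.1 TPM against 1.09 and 0.869 TPM, differences of -4.02 and -3.96. Its level varied widely in the other lines, from 1.87 to 138 TPM, and was also low in the line labelled KCREB (2.93 and 1.87 TPM). Oas2 had 24.8 and 11.4 TPM against 3.67 and 1.29 TPM, and the GTPase gene Iigp1 21.3 and 10.7 TPM against 4.23 and 1.46 TPM. The Oas genes have similar copies, so the division of reads among them is uncertain. The deconjugating enzyme Usp18 (-1.27 and -1.66), the RNA sensor Ddx58 (-1.25 and -1.23) and Trim30a (-1.09 and -1.79) were lower as well. Ifi47 was the 1 member of the list that was higher by the rule, with 9.91 and 12.7 TPM against 35.9 and 40.9 TPM, and 7 members were higher in both treatments at any size. Outside the list, Ifitm3, an interferon-induced membrane protein that blocks virus entry, had 37.8 and 19.6 TPM against 339 and 239 TPM. Ifitm3 ranged from 2.35 to 893 TPM in the other lines, with 774 and 893 TPM in the line labelled S133A-CREB. Of 17 genes of MHC class I and antigen processing, Psmb9 (-2.03 and -2.09) and Tap1 (-2.22 and -1.37), which prepare peptides, were lower and the invariant chain Cd74 was higher.

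Components of the TGFβ and BMP pathways split evenly, with 2 higher and 2 lower of 30 and a median of 0.00. The type I receptor gene Tgfbr1 had 53 and 52.2 TPM in Vector against 23.1 and 24.1 TPM, while Tgfbr2 had differences of 0.23 and 0.34. Ltbp3, which stores latent TGFβ in the matrix, had 169 and 129 TPM against 28.1 and 24.8 TPM. Inhbb, a subunit of activin B, had 5.51 and 2.69 TPM against 50.5 and 48.8 TPM, and Id3, a BMP target, 0.345 and 0.398 TPM against 15.7 and 20.7 TPM. Of 21 SMAD targets that TGFβ induces, 1 was higher (Fn1) and 1 lower (Tgfbr1), with a median of 0.68 in control and -0.05 with TGFβ. Pmepa1, which restrains SMAD signalling, shows the pattern, with 64.0 and 512 TPM in Vector against 256 and 474 TPM. Ccn2, a matricellular protein, was past 2-fold with TGFβ alone, with 121 and 998 TPM against 111 and 279 TPM. Ptgs2, which makes prostaglandins, likewise had 34.9 and 108 TPM in Vector but 34.3 and 33.8 TPM in the line labelled WT-CREB.

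Of 17 Wnt genes, 2 were higher and 4 lower, and the ligands Wnt7a and Wnt7b were exchanged. Wnt7a had 27.6 and 6.47 TPM in Vector against 0.107 and 0.126 TPM, and Wnt7b, which had 0.0453 and 0.255 TPM in Vector, had 25.1 and 46.8 TPM. Wnt7b had at most 1.95 TPM in the other lines, while Wnt7a ranged from 0.366 to 39.6 TPM. The nuclear effector Lef1 had 7.12 and 27.9 TPM against 47.1 and 59.9 TPM, and the secreted inhibitor Sfrp1 181 and 42.2 TPM against 48.5 and 18.4 TPM. Among immediate early genes, 3 of 24 were higher and 0 lower, namely the AP-1 member Fosl1 (2.56 and 1.49), Egr2 (1.57 and 1.85) and the ERK inhibitor Spry1 (2.06 and 1.41).

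Stress and metabolic lists mostly shifted by less than 2-fold. Of 21 genes of the unfolded protein response, 18 were lower in both treatments at any size, where 41.5% of all genes were, and 0 met the 2-fold rule, with a median of -0.49. Xbp1, its transcription factor, had 124 and 241 TPM in Vector against 62.9 and 85.1 TPM, Pdia4 differences of -0.70 and -0.90, and Manf of -0.71 and -0.87. Atf6 was higher, with 0.87 and 0.49. Of 28 G2-M genes, 19 were lower in both treatments, the median was -0.24, and 0 met the rule. Plk1, a mitotic kinase, had 180 and 170 TPM against 87.0 and 93.8 TPM. In 25 p53 targets, of which 23 reached 5 TPM, 2 were higher by the rule and 0 lower. These 2 were Tnfrsf10b and Fas (1.34 and 1.90), both death receptors. The list as a whole did not share their direction, with 8 members higher and 10 lower in both treatments at any size. Its median was 0.01, or 0.06 in control and -0.25 with TGFβ. Of 24 cholesterol genes, 17 were lower and 4 higher in both treatments at any size, the median was -0.15, and 0 met the rule.

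Of 14 genes for retinoid, aldehyde and aldo-keto enzymes, 5 were higher and 4 lower. Aldh1a1, which makes retinoic acid, had 749 and 69.0 TPM in Vector against 24.0 and 4.93 TPM, differences of -4.90 and -3.56. Its neighbour Aldh1a7 had 65.0 and 9.19 TPM against 1.48 and 0.693 TPM, and the retinaldehyde reductase Dhrs3 18.8 and 13.8 TPM against 0.797 and 0.869 TPM. Crabp2, which carries retinoic acid, had 0.784 and 1.36 TPM against 15.7 and 21.6 TPM, and Cyp1b1, an oxidase of retinoids and steroids, at most 0.0861 TPM against 13.5 and 11.4 TPM. The retinol dehydrogenase gene Rdh10 (-1.33 and -1.13) was lower. Outside the list Adh7, an alcohol dehydrogenase that also oxidises retinol, was higher, with 15.5 and 4.78 TPM against 90.6 and 78.6 TPM, so enzymes of this pathway went in both directions. Aldh1a1 and Aldh1a7, and the aldo-keto reductases Akr1b8 (2.10 and 1.31) and Akr1c14 (2.24 and 2.17), belong to families with near copies, so their values are uncertain.

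**Figure D4:**
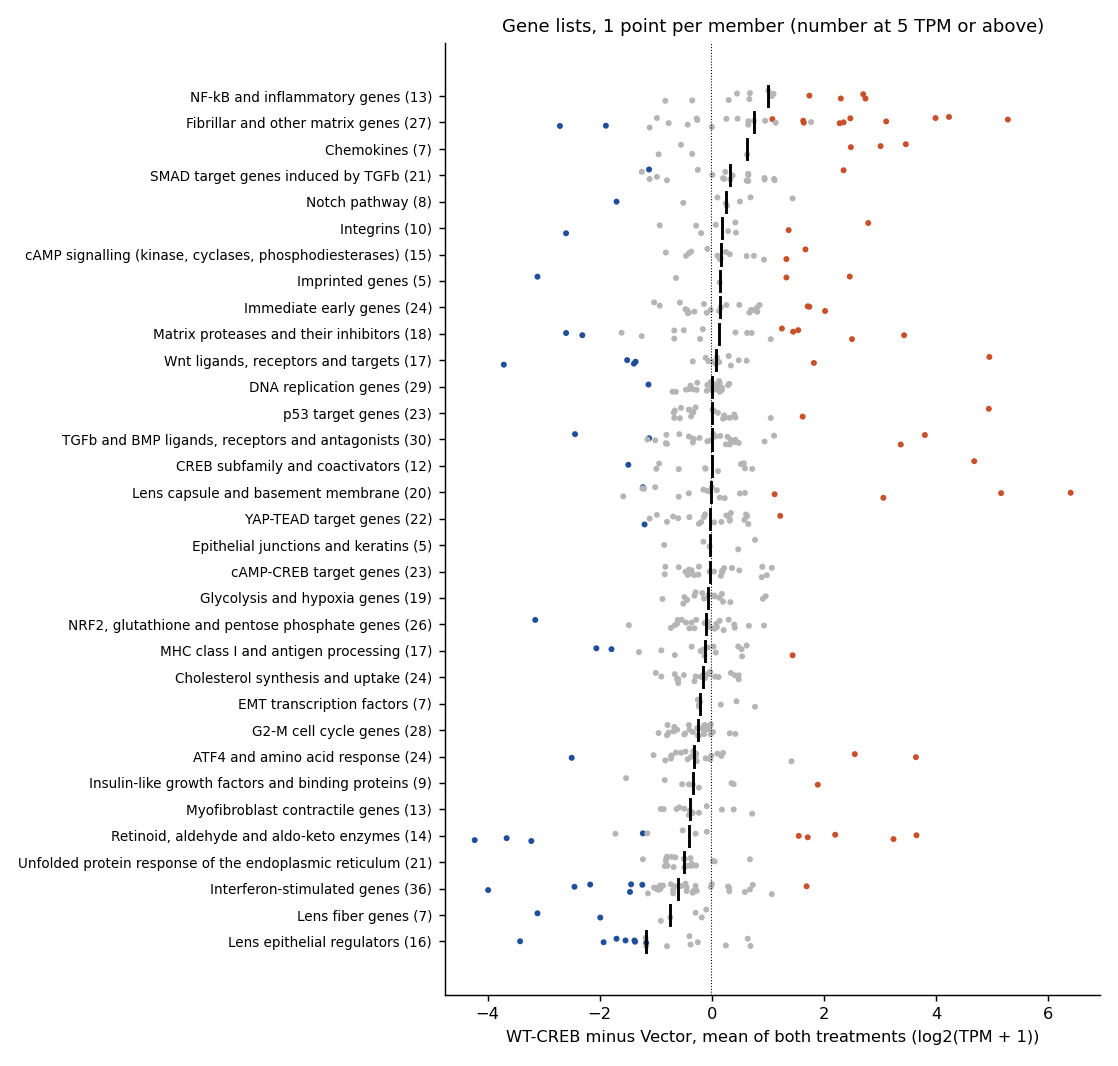
Mean of the 2 differences (WT-CREB minus Vector, log2(TPM + 1)) on the x axis for each member at 5 TPM or above of the 33 lists with at least 5 such members, sorted by median (black bar). Red and blue points met the 2-fold rule in both treatments, and the dotted line is the median of all genes, -0.02. NF-kB genes have the highest median, 1.01, and lens epithelial regulators the lowest, -1.17.

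Few genes of germ cells and of body patterning were expressed. Of 39 germline genes, 4 reached 5 TPM. Rhox5 was higher, and Nlrp4f, an oocyte NLR gene (10.4 and 10.6 TPM against 0.208 TPM and a listing at 0), Cox7b2 (31.9 and 27.0 TPM against 1.17 and 3.89 TPM) and Dppa4 (12.5 and 17.3 TPM against 1.29 and 1.28 TPM) were lower. Nlrp4f and Rhox5 belong to families of similar genes. Of 4 Hox genes at 5 TPM or above, 2 were lower. Hoxd13, a gene of the distal limb, had 17.6 and 22.1 TPM in Vector, 11.8 to 26.1 TPM in the other lines, and was listed at 0 in both libraries labelled WT-CREB. Hoxd8 on the same cluster had -1.09 and -1.12, and Hoxd9 -0.02 and -0.16. Among 30 imprinted genes, 5 reached 5 TPM, with a median of 0.14. By the rule 2 were higher, Sgce (2.11 and 2.81) and Mcts2 (1.61 and 1.06), and 1 was lower, Slc22a18 (-3.46 and -2.75). Sgce ranged from 0 to 22.4 TPM in the other lines.

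Position on the genome was not used by the rule. By chromosome, the median difference ran from -0.23 on chromosome 6 to 0.31 on chromosome 18 among the autosomes. The widest shift was at the start of chromosome 4. In its first 50 Mb, 158 genes had a median of -0.66, with -0.65 in control and -0.70 with TGFβ. Of them 137 (86.7%) were lower in both treatments, 30 (19%) were at least 2-fold lower and 0 at least 2-fold higher. The other 519 genes of the chromosome had a median of -0.02, with 10 (1.93%) at least 2-fold lower. The other 5 lines had medians between -0.12 and 0.01 in the same stretch against the same Vector libraries. Among 221 windows of 10 Mb with at least 15 genes, medians ran from -0.96 to 0.53, and the lowest was between 20 and 30 Mb of chromosome 4.

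Creb3, Npr2, Vcp, Tgfbr1, Dctn3, the galactose enzyme Galt (-2.25 and -2.07) and the interleukin 11 receptor Il11ra1 (-2.37 and -2.32) all lie in this stretch. Their differences share the direction of the stretch, and its part in them was not tested. The differences of Npr2 (-5.68 and -5.33) were much larger than the median of the stretch, -0.66. Without the stretch 276 genes were at least 2-fold lower in place of 306. On chromosome 7 between 70 and 150 Mb, 394 genes had a median of -0.41, and the line labelled R314A-CREB had -0.35 there. On chromosome 18 from 20 Mb, 240 genes had a median of 0.34, and on chromosome 2, with 850 genes, the median was 0.21, close to the 0.20 of the line labelled KCREB. These stretches were singled out after their values were seen. Of neighbouring tested genes that both met the rule, 24 pairs were higher together and 33 lower together. A further 10 had opposite directions (3 and 7 by order), counted over the genes of all chromosomes. The lower pairs include several in the stretch that holds Npr2, and the higher pairs several of adjacent mitochondrially encoded genes. Mir7061 lies within Plekha1, whereas Plod2 and Dipk2a are 1909436 bases apart. The share among all neighbouring genes was not computed, so whether neighbours tend to share a direction was not tested.

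Mitochondrially encoded genes were higher as a group, with 10 of 33 (30.3%) past 2-fold in both treatments and a median of 0.65. The other lines were also above Vector here, with medians of 0.07 to 0.65. The share of TPM in these genes, given above, was also higher in both libraries labelled WT-CREB, and its part in these differences was not tested. Of the Y-linked genes 3 of 6 were higher, among them Eif2s3y (49.3 and 46.1 TPM against 124 and 112 TPM) and Uty (10.3 and 11.1 TPM against 29.6 and 27.4 TPM). On the X chromosome 5 genes were higher and 20 (6.12%) lower.

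**Figure D5:**
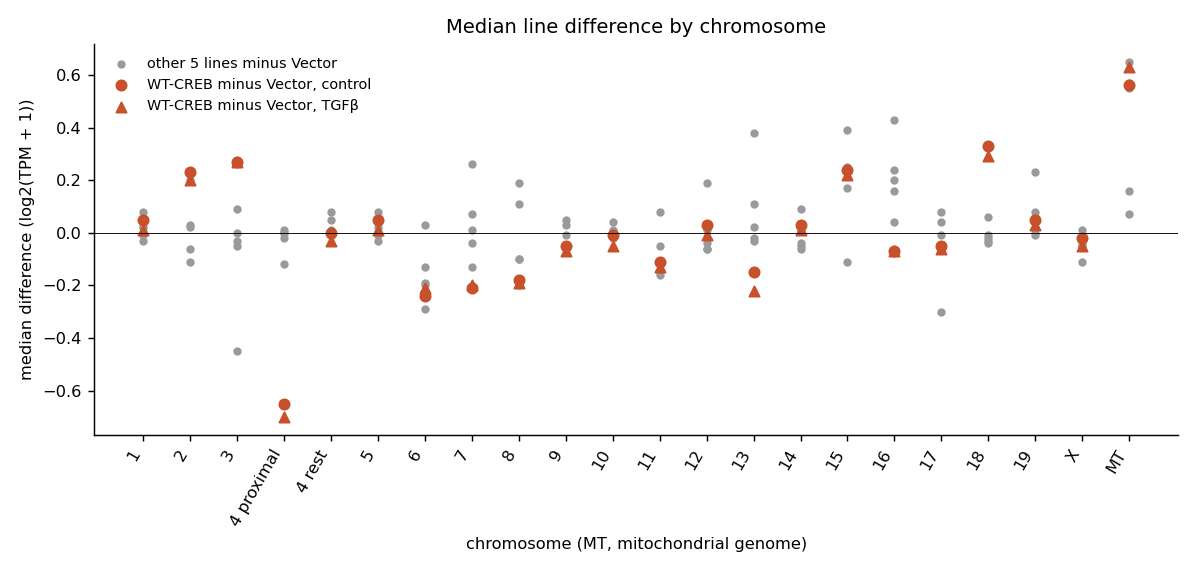
Median difference by chromosome on the y axis (log2(TPM + 1)), in red for WT-CREB minus Vector in control (circles) and TGFβ (triangles) and in grey for the other 5 lines, as means of both treatments against the same Vector libraries. Chromosome 4 is divided into its first 50 Mb (proximal) and the rest, and the proximal part has the lowest red values, -0.65 and -0.70.

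The difference between the lines overlapped with the response to TGFβ. Across genes the 2 libraries labelled WT-CREB were correlated at 0.985 and the 2 Vector libraries at 0.952 (Pearson, log2(TPM + 1), 10461 genes). With TGFβ, 228 genes (2.18%) were at least 2-fold higher and 277 (2.65%) at least 2-fold lower than in control in Vector, against 51 (0.488%) and 70 (0.669%) in the line labelled WT-CREB. Those were the lowest counts of the 7 lines, whose counts of higher genes reached 304. The Vector TGFβ library correlated with the control library labelled WT-CREB at 0.905, and the Vector control library at 0.886.

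The 5 other lines, which share no library with the comparison, give the TGFβ response of these genes independently. Of the 575 genes that were at least 2-fold lower in control cells labelled WT-CREB, 338 (58.8%) were lower with TGFβ in all 5 other lines, where 21.1% of all genes were, and their median response was -0.41. Of the 478 genes that were higher, 181 (37.9%) were higher with TGFβ in all 5, where 26.8% of all genes were, with a median of 0.21. Among the genes past 2-fold in both treatments the shares were 148 of 306 (48.4%) and 79 of 283 (27.9%). The genes higher in the line labelled WT-CREB in both treatments thus had a share close to that of all genes, and those lower had a larger one.

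The 10 genes whose 2 differences were furthest apart, among those that met the rule, are given as a description, since a wide gap between the differences is by construction a wide gap between the TGFβ responses of the 2 lines. Fgfr3 and Ecrg4, a secreted peptide precursor with 50.5 and 3.28 TPM in Vector against 1.84 and 0.659 TPM, were lower with TGFβ in Vector and in all other lines. So were the glutathione transferases Gstm7 (62.2 and 7.07 TPM against 2.46 and 1.51 TPM) and Gsta2 (119 and 14.7 TPM against 4.71 and 3.15 TPM), whose families have near copies, except that Gsta2 was slightly higher with TGFβ in the line labelled S133A-CREB. P2ry14, a receptor for UDP-glucose, had 0.673 and 13.8 TPM in Vector against 98.8 and 131 TPM. Bmf, a killer protein of the BCL2 family, had 0.442 and 11.5 TPM against 19.3 and 28.3 TPM, and Tcim, a regulator of Wnt signalling, 0.633 and 9.01 TPM against 39.0 and 50.0 TPM. These 3 and Lif and Adamts4 were higher with TGFβ in Vector and in all other lines. Rgs16, which shuts off G proteins, had the larger difference with TGFβ, with 39.8 and 115 TPM in Vector against 16.7 and 8.46 TPM.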

How the data were processed

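RNA was sequenced from 14 cultures, and 4 of them, 1 control and 1 TGFβ culture of each line, make this comparison. Lines and treatments come from the sample titles. Per the submitters' processing notes, the tools were StringTie 2.0.4, STAR 2.7.6a and edgeR and the build GRCm39, whose roles are not stated. The sources used here give neither strandedness nor the annotation release. The deposited tables hold TPM, FPKM and per-base coverage by gene, per the file headers. They hold no read counts, so no interval for counting error is given. The authors' TPM, in which each library sums to the same total, was summed by gene identifier and taken as log2(TPM + 1). That scale understates the change of low genes. Genes with a mean of 5 TPM over the 4 libraries were compared within each treatment, and 2-fold in both treatments was the rule for a call. The text names the 12 highest and 12 lowest genes, passing over predicted genes and pseudogenes, the 8 most abundant in each direction, up to 4 per list, up to 8 near 0 in 1 line, and genes of opposite direction. Other list members are named as examples, and a few genes are not reported here. The members and the 42 lists were chosen with earlier results of these data known. Alternatives were other pseudocounts, filters, folds, scalings, FPKM and 1 treatment alone. Coordinates are on GRCm39, promoter sequences on GRCm38.p6. Python 3.11.15, pandas 2.3.3 and numpy 2.4.6 were used.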

Additional observations from a re-analysis of the deposited data

Results flagged for a closer look

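2 genes were past 2-fold in opposite directions in the 2 treatments, and whether the treatments differ was not tested, since each value rests on 1 library per line. Tgfbi, a matrix protein that TGFβ induces, had 1.40 TPM in Vector control and 47.0 TPM in Vector TGFβ cells, against 11.6 and 21.5 TPM in the line labelled WT-CREB, so that its difference was 2.39 in control and -1.09 with TGFβ. Xpnpep2, a membrane aminopeptidase, had 13.1 and 0.989 TPM against 5.56 and 3.45 TPM, differences of -1.11 and 1.16. In both genes the control and TGFβ libraries of Vector were the extreme values and those labelled WT-CREB lay between them. The direction from control to TGFβ was the same in both lines.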

How the results depend on the processing

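The 283 higher and 306 lower genes became 428 and 495 with a filter at 1 TPM, 146 and 153 at 20 TPM and 453 and 527 with no filter. They became 635 and 828 at 1.5-fold, 78 and 84 at 4-fold, and 478 and 575 with the control libraries alone. A pseudocount of 5 left 202 lower genes. Without a filter 14803 genes had 1 direction in both treatments. The share of genes past 2-fold in control that were also past it with TGFβ was 55.9%, or 50.1% with a pseudocount of 5, 50.4% at 20 TPM and 52.1% with no filter. Other scalings, FPKM, a pseudocount of 0.1 and TGFβ libraries alone kept both counts within 1.5 times. After the data were seen, the counts were also taken without the start of chromosome 4 (276 lower) and without mitochondrially encoded genes (273 higher). Of 40 leading genes that met the rule, quantile normalization lost 4 (Fth1, Vcp and Plod2 among them), FPKM 3 (mt-Rnr2, TrnL1 and Plod2) and TPM without mitochondrially encoded genes 2 of 36 (Plod2 among them). The difference in Creb1 stayed below 0, from -1.17 to -0.79. Of 392 list medians under alternatives, 19 changed sign, all in lists whose median was at most 0.33 from 0. No fit with a replicate term was made. The lines were compared within each treatment throughout. Without read counts, the precision that depth allows could not be given.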
